A study of Mus musculus with 146 samples.

Results

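Rab genes encode small GTPases that mark the membranes of a cell, and 42 of them were described in the bone marrow-derived macrophages of 146 mice. The 42 members were the protein-coding genes of the authors' variance-stabilised (VST) table of 10893 genes whose mouse symbol is Rab, a number and at most 1 letter. The unfiltered count table of 22721 genes held 58 genes with such a symbol that were examined here, and 16 of these fell short of the VST table, where no gene had fewer than 5 counts in any of the libraries. All mice were labelled with 1 outbred strain, Crl:CFW(SW)-US_P08 (CFW), and an age of 16 weeks, and 60 were male and 86 female. Their marrow cells grew for 5 days in medium containing L929-conditioned medium, with no treatment, so no mouse was a treated or mutant animal and each library is 1 outbred mouse. The study related gene expression in these cells to genotype and to wound healing, and neither of those was analysed here.

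A Rab protein cycles between a GDP-bound form that a dissociation inhibitor holds in the cytosol and a GTP-bound form on a membrane. Exchange factors load GTP, activating proteins trigger its hydrolysis, and effectors bind the GTP form to tether, move or fuse vesicles. In macrophages, which live by engulfing particles, Rab5 proteins act on early endosomes and new phagosomes, Rab7 proteins on late endosomes, mature phagosomes and lysosomes, Rab4, Rab11 and Rab35 proteins in recycling, Rab1, Rab2, Rab6 and Rab18 around the endoplasmic reticulum and Golgi, and Rab3, Rab8, Rab10, Rab27 and Rab37 in secretion or granule release.

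Male libraries held 21.6 M to 119.9 M counts (M, 1e6 counts; median 42.01 M) and female libraries 14.5 M to 120.9 M (median 44.2 M), and they fell on 7 labelled batches of 6 to 24 libraries, called plates as in the sample names. The summed counts of Y-linked genes went against the sex label in 2 male and 4 female libraries, and results were also obtained without those libraries. Macrophage markers were abundant: Lyz2 (lysozyme), Cd68, Csf1r, Adgre1 and Itgam all had means above 609 CPM (counts of a gene per 1e6 counts of its library). Every marker of T and natural killer cells, of mast cells and basophils and of erythroid cells had a mean under 1 CPM. The highest means on other lists were Pf4 (megakaryocyte, 58.4 CPM), Itgax (dendritic cell, 28.7), Cd79b (B cell, 2.40) and Col1a2 (stromal, 2.25). On these lists 2 of 4, 2 of 4, 3 of 4 and 1 of 5 genes had a mean under 1 CPM. Granulocyte precursor genes were present in all libraries, led by Mpo at 157 ± 106 CPM (SD, n = 146). Bulk RNA does not tell fewer cells of a type from less RNA per cell.

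The highest levels of the family per kilobase of exon, the scale on which genes are compared, were those of a late and an early endosomal gene. Rab7, the GTPase of late endosomes and phagosome maturation, stood first at 206 ± 13.7 CPM per kb (SD, n = 146), and Rab5c, an early endosomal Rab5 protein, second at 175 ± 11.8. Rab1a and Rab1b, which act between endoplasmic reticulum and Golgi, had 122 ± 15.7 and 92.2 ± 9.11 CPM per kb. Rab8b, an exocytic Rab, had 118 ± 12.1 CPM per kb, and Rab31, which works between Golgi and endosomes, 82.7 ± 5.08. At the other end were Rab37 at 0.635 ± 0.325, Rab39 at 1.30 ± 0.593 and Rab3a, best known from synaptic vesicles, at 1.45 ± 0.310 CPM per kb. By role, the median level was 42.3 CPM per kb over the pair of lysosome-related organelle genes, 31.3 in endoplasmic reticulum and Golgi genes, 22.5 in early endosomal, 21.1 in recycling, 20.04 in late endosomal and 15.4 in secretory genes. All members together took 5373 ± 216 CPM, of which the 8 early endosomal genes gave 1475 ± 60.4 and the 8 endoplasmic reticulum and Golgi genes 1240 ± 79.2. The 8 secretory genes gave 1116 ± 83.04 CPM, the 5 late endosomal genes 826 ± 68.6 and the 5 recycling genes 399.8 ± 26.0. Rab29 and Rab32, which serve lysosome-related organelles, gave 184 ± 29.8 CPM together, and 6 genes of other or unsettled roles 133 ± 9.48.

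**Figure D1:**
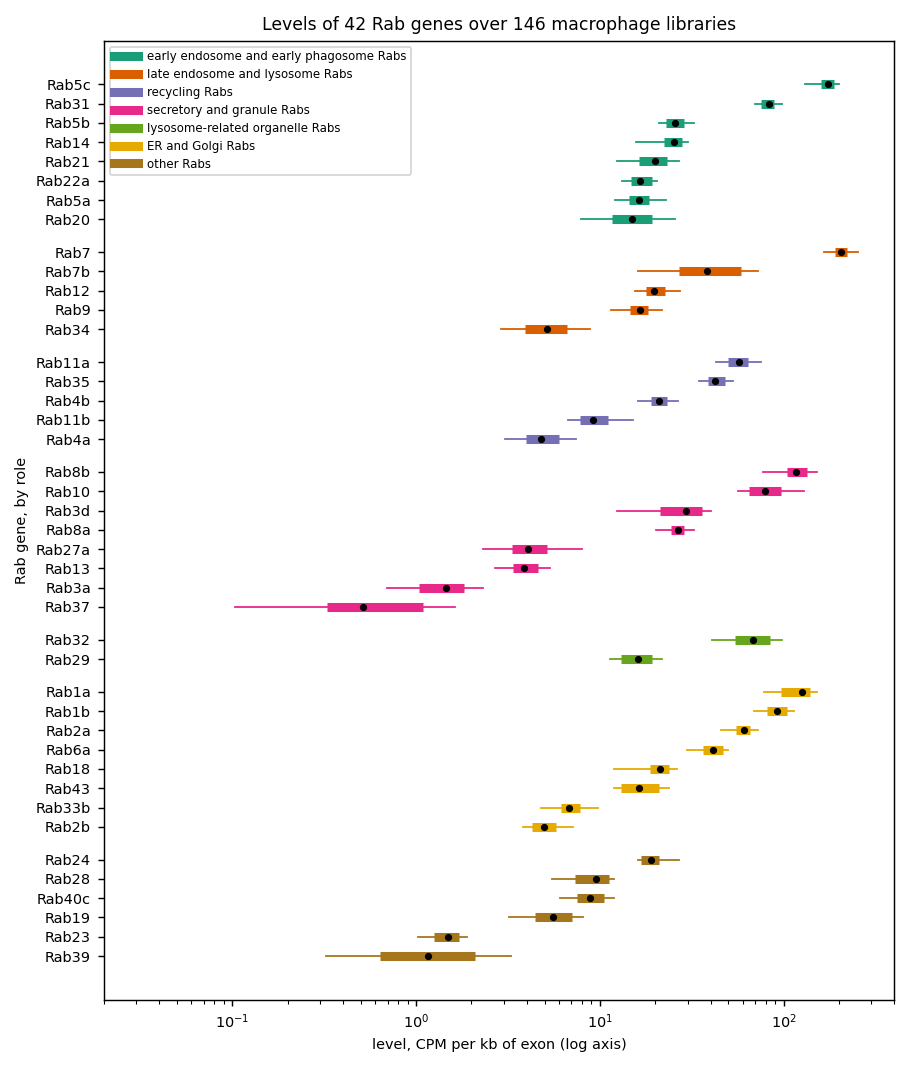
Level of each of the 42 Rab genes in CPM per kb of exon (log axis), grouped by role; thin lines run over all 146 libraries, thick bars from the 10th to the 90th percentile, and dots are medians. Rab7 and Rab5c lie at the high end with short bars, and Rab37 and Rab39 at the low end with the longest ones.

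Within families of close relatives 1 gene usually led. Among the Rab5 genes, Rab5c had 175 CPM per kb against 25.6 ± 2.20 for Rab5b and 16.3 ± 1.74 for Rab5a. Rab7 exceeded its relative Rab7b, a lysosomal Rab of monocytic cells, at 40.3 ± 12.3 CPM per kb. Rab8b exceeded Rab8a (26.6 ± 1.83), Rab11a (57.2 ± 5.80) exceeded Rab11b (9.35 ± 1.41), and Rab4b (21.1 ± 1.78) exceeded Rab4a (4.86 ± 0.773), although 58.1% of the 50-base words of Rab4b occur in another annotated gene too. The genes not in the VST table were low in every library. Their means ran up to 1.19 CPM for Rab15, and Rab38, the other lysosome-related organelle Rab beside Rab32, averaged 0.463 CPM. Rab27b, the second Rab27 gene, averaged 0.127 CPM.

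In all 6 members share at least 20% of their 50-base words with another annotated gene, so their counts may hold reads of that gene: Rab2b, Rab4b, Rab20, Rab24, Rab33b and Rab43. For Rab43 the share was 74.5%, all of it with the readthrough gene Gm45140, and for Rab24 it was 49.6%, with Prelid1 on the opposite strand. Values of these genes are uncertain to that extent.

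Most members varied little between mice, and a few varied a great deal. Spread is given as the 90th percentile divided by the 10th, and this ratio had a median of 1.36 over the 42 members, against 1.41 over all VST genes. Rab7 was the steadiest member, with 431 CPM in the lowest library, 536 in the median and 659 in the highest, and a ratio of 1.17 that was larger than that of only 1.44% of VST genes. Rab37, which takes part in granule and cytokine secretion, ran from 0.554 through a median of 2.73 to 8.64 CPM, a ratio of 3.34 that exceeded 96.2% of VST genes. Rab39, a Golgi and endosome Rab with roles in phagosome acidification and autophagy, ran from 0.967 through 3.45 to 9.75 CPM (ratio 3.27). Both are among the 3 genes of lowest level, so counting error adds to their spread, with lowest counts in any library of 18 for Rab37 and 14 for Rab39. Rab7b was abundant and variable, from 74.97 through 178 to 334 CPM (ratio 2.17). Rab3a ran from 1.55 through 3.25 to 5.12 CPM (ratio 1.75). Rab3d, a Rab of secretory granules, ran from 51.8 through 123 to 168 CPM (ratio 1.70), and Rab34, which positions lysosomes, from 6.91 through 12.2 to 20.9 CPM (ratio 1.68). By role, the median ratio was 1.52 in secretory genes, 1.51 in lysosome-related organelle genes, 1.46 in the other genes and between 1.28 and 1.29 in early endosomal, late endosomal, recycling, and endoplasmic reticulum and Golgi genes.

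Males had slightly more RNA of a few endocytic Rabs than females. With edgeR's quasi-likelihood test on counts, with plate as a covariate and p-values adjusted over all 12877 tested genes (Benjamini-Hochberg), 4 of 42 members passed 0.05 and all 4 were higher in males. Over all tested genes 5.06% passed, with 2.15% higher and 2.9% lower in males. The median log2 difference (male minus female) was 0.035 over members and 0.0017 over all tested genes. The differences were small against the spread between mice, and the sexes overlapped widely for all 4 genes.

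Rab5b (ENSMUSG00000000711, GRCm38 chr10:128677175-128696264) had 93.8, 111 and 137 CPM in the lowest, median and highest male library, against 88.2, 105 and 123 CPM in female libraries. It rose by 0.085 ± 0.019 on the log2 scale (SE), with an edgeR adjusted p of 0.00297, and was higher in males on 7 of 7 plates. Rab7 (ENSMUSG00000079477, GRCm38 chr6:87999106-88045270) had 462, 549.5 and 659 CPM in males against 431, 529 and 602 CPM in females. Its log2 difference was 0.058 ± 0.016, the edgeR adjusted p 0.0210, and males were higher on 6 of 7 plates. Rab22a (ENSMUSG00000027519, GRCm38 chr2:173659760-173707343), an early endosomal Rab of the Rab5 branch, had 95.3, 123 and 148 CPM in males against 99.5, 116 and 148 CPM in females. Its log2 difference was 0.074 ± 0.024 with an edgeR adjusted p of 0.0432, again with males higher on 7 of 7 plates. Rab2b (ENSMUSG00000022159, GRCm38 chr14:52261759-52279545), a Golgi Rab, had 17.3, 21.7 and 29.7 CPM in males against 15.9, 19.9 and 27.5 CPM in females (log2 difference 0.116 ± 0.029, edgeR adjusted p 0.00872), but 56.99% of its 50-base words occur in another annotated gene.

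These calls depended on which plates entered. Without plate 4 none of the 42 members passed (9 of 42 had an unadjusted p under 0.05 in edgeR). Rab5b then had an edgeR adjusted p of 0.063. Over all genes 1.91% passed without plate 4, and 13.6% had an unadjusted p under 0.05. With each plate left out in turn, 0 to 5 members passed: Rab5b and Rab2b lost their calls without plate 4 alone, Rab7 without plate 2, 3, 4, 7 or 8, and Rab22a without any plate but plate 10. Without the 6 libraries against their sex label 5 members passed, with Rab8b (edgeR adjusted p 0.0408) beside the 4, and 7.66% of all genes. Rab22a lost its call with the collection date in place of plate (edgeR adjusted p 0.123) and without the count filter (edgeR adjusted p 0.0536). Rab7 lost its call with the sequencing lane in place of plate (edgeR adjusted p 0.110). Cell type markers also differed by sex. Among 5 macrophage markers Adgre1 was higher in males (635 CPM on average, against 591 CPM in females, edgeR adjusted p 0.0180). Of the stromal markers 3 of 5 (Col1a1, Col1a2 and Dcn) were lower in males, and their summed level ran from 0.0373 to 22.2 CPM in males against 0.110 to 80.6 CPM in females. The summed granulocyte precursor level ran from 76.2 to 1477 CPM in males and 97.4 to 1772 CPM in females, with Mpo as 1 of 10 genes that passed. The part of these in the Rab differences was not tested. No member passed the test of a sex difference that varies between plates (0 of 42 by edgeR, 1 with an unadjusted p under 0.05), where 0.06% of all genes passed.

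**Figure D2:**
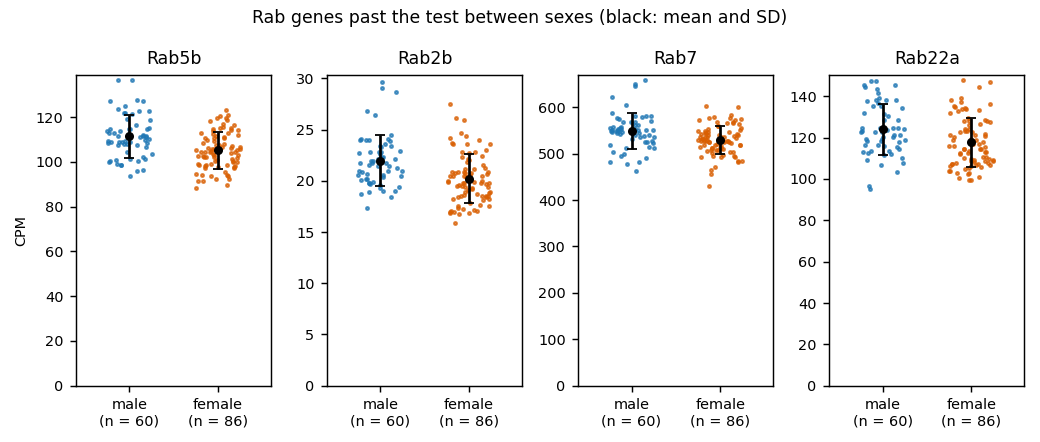
CPM of the 4 Rab genes past the test between sexes in 60 male (left) and 86 female (right) libraries; each dot is 1 mouse, and black points with bars are the mean and SD. The male means lie above the female means by less than 1 SD in each panel.

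Levels differed between plates for 33 of 42 members by the edgeR F test, against 71.4% of all genes tested. The strongest were Rab6a, a Golgi transport Rab (mean 171 CPM on plate 1, the highest, and 132 on plate 10, the lowest; edgeR adjusted p 2.45e-17), Rab21 (ratio of highest to lowest plate mean 1.31), Rab1a (1.29), Rab18 (1.34), Rab35 (1.14) and Rab28 (1.30). Then came Rab5b, Rab39, Rab43, Rab4b, Rab14 and Rab22a. The largest ratios of plate means were those of Rab39 (2.01) and Rab37 (1.95). All relations that follow were computed after plate and sex had been removed from the VST values.

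Many Rab genes rose and fell together across mice, and a few ran against them. Over the 861 pairs of members the Spearman rho of residual VST values had a median of 0.058, and 462 pairs passed an adjusted permutation p of 0.05, 281 positive and 181 negative. That is 53.7% of pairs, while 44.8% of all pairs of VST genes lay past the same absolute rho of 0.186. With collection date in place of plate 447 pairs were called, 385 of them shared with the main result. Strong positive pairs stood out more than strong negative ones: 60 Rab pairs (6.97%) had rho over 0.5 against 2.46% of all gene pairs, and 18 (2.09%) lay below -0.5 against 2.18%. Genes of 1 cell share libraries and expression states, so these are descriptions of co-variation across mice.

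The highest pair was Rab2a with Rab18, both of the early secretory pathway, at rho 0.775 (r = 0.786, r = 0.764 without the 2 most distant libraries). Within plates its rho ran from 0.627 to 0.943. Rab18 also rose with Rab11a, the main recycling endosome Rab, at rho 0.754, with Rab5a at 0.713 and with Rab8b at 0.664. Rab5a rose with Rab8b (0.687), Rab11a (0.680), Rab12 (0.672) and Rab33b (0.671). High too were Rab22a and Rab35, a recycling Rab, at rho 0.751 (r = 0.746, within plates 0.544 to 0.910), Rab12 and Rab22a at 0.717, Rab8b and Rab12 at 0.706, and Rab2b and Rab22a at 0.666. Each of these 12 pairs had a permutation p of 1e-05 for rho, the smallest that 100000 permutations within plates can give, and each was positive on 7 of 7 plates.

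The most negative pairs held Rab29, Rab1b or Rab1a. Rab29, a Golgi and lysosome Rab that recruits the kinase Lrrk2, fell as Rab11b rose (rho -0.660, r = -0.650), as Rab22a rose (-0.640), as Rab43 rose (-0.613) and as Rab35 rose (-0.591). Rab1b ran against Rab5a (-0.618), Rab8b (-0.596) and Rab22a (-0.568), and Rab1a against Rab35 (-0.599), although Rab1a rose with Rab2a (0.364). The permutation p for rho was 1e-05 in these 8 pairs too, and all were negative on 7 of 7 plates apart from Rab1b with Rab22a, negative on 6.

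**Figure D3:**
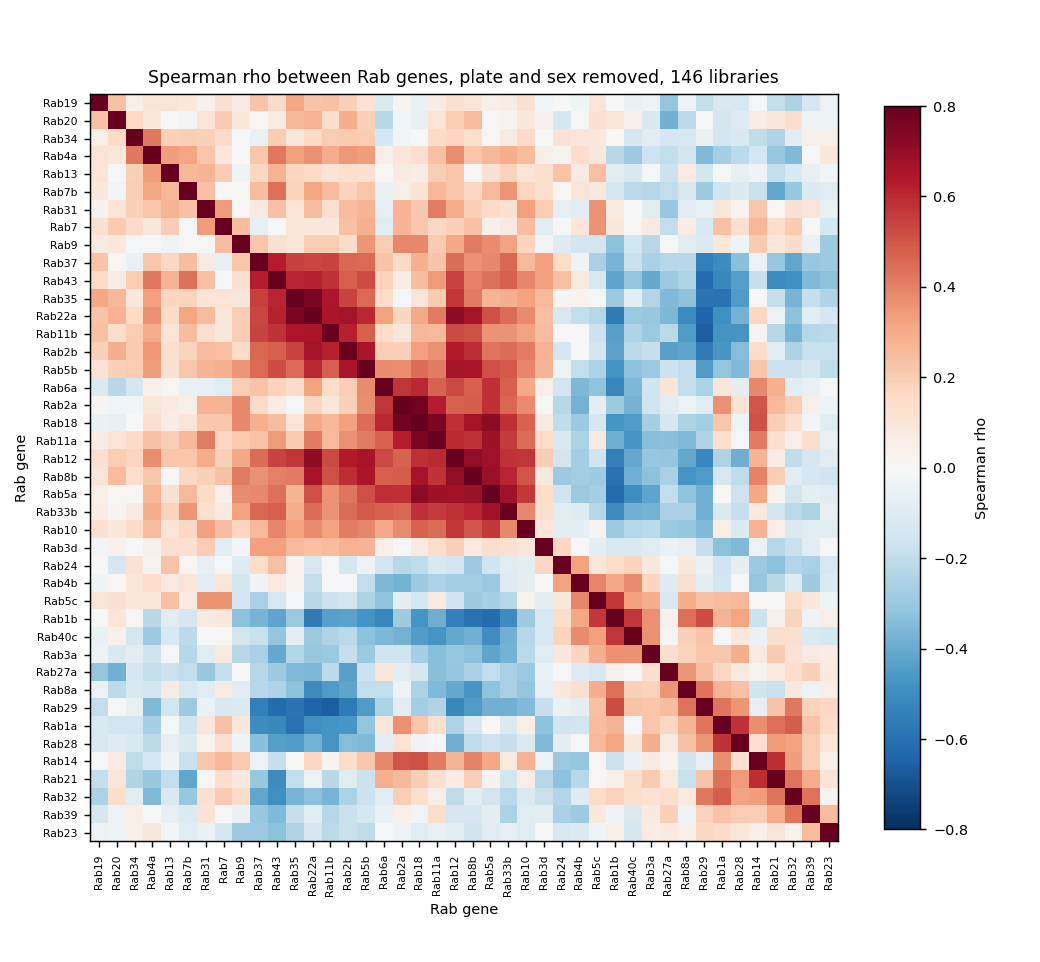
Spearman rho between all pairs of the 42 Rab genes over 146 libraries after removal of plate and sex, with genes ordered by clustering; red is positive and blue negative. A red block runs from Rab37 through Rab22a, Rab18, Rab8b and Rab5a to Rab10, with blue against Rab1b and Rab29, while Rab1a is blue against Rab35 and its neighbours and pale red with Rab2a and Rab18.

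The role groups are described by counts, with no test between them. Pairs within a role had a median rho of 0.106 with 58.3% called, and pairs between roles 0.045 with 52.9% called. The endoplasmic reticulum and Golgi genes were the most connected, with 25 of 28 pairs called, 17 positive and 8 negative. Early endosomal genes had 15 of 28 pairs called, 12 of them positive, and their highest pair was Rab5b with Rab22a (rho 0.602). Secretory genes had 14 of 28 called, 5 positive and 9 negative, with Rab8b and Rab10 highest (0.506). Recycling genes had 7 of 10 called, with Rab11b and Rab35 highest (0.645), and late endosomal genes 5 of 10, with Rab9 and Rab12 highest (0.310). Rab29 and Rab32 rose together at 0.420, and Rab23 with Rab39 at 0.253 among the other genes, where 3 of 15 pairs were called. Of the 10 pairs of a recycling Rab with Rab29 or Rab32, picked after the values were seen, 7 were called, all negative. Of all pairs of VST genes 22.4% lay past the same absolute rho on the negative side. These 10 pairs are not independent, since each holds Rab29 or Rab32, which rose together.

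Close relatives did not rise and fall as a unit, a comparison chosen after these values were seen. Of 10 pairs of genes with the same Rab number, 4 were called positive, 3 were called negative and 3 were not called. Past the absolute rho of 0.186 lay 22.3% of all pairs of VST genes on the positive side and 22.4% on the negative side. For all pairs of Rab members these shares were 32.8% and 21.1%. With collection date in place of plate Rab4a with Rab4b was called (0.342) and Rab2a with Rab2b was not (0.102). With 5 principal components of the VST genes outside the Rab family removed 0 of the 10 pairs were called. Rab5a and Rab5b rose together (rho 0.513, r = 0.528, permutation p = 1e-05 for both). Rab5c, the leading Rab5 gene, ran the other way from Rab5a (rho -0.268, permutation p = 0.00148) and from Rab5b (-0.251, permutation p = 0.00260). Rab8a, the exocytic relative of Rab8b, ran against it at rho -0.471 (r = -0.482, permutation p = 1e-05), negative on 7 of 7 plates. Rab1a with Rab1b (0.271) and Rab11a with Rab11b (0.261) were positive, and Rab7 with Rab7b had a rho of -0.005 (permutation p = 0.950).

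Much of this structure lay along the main axis of variation of the whole transcriptome. The first principal component of the VST genes outside the Rab family held 21.5% of their residual variance, with each gene standardised. It explained 64.3% of the residual variance of Rab43, 61.1% of Rab12 and 59.2% of Rab22a, but 0.340% of Rab7 and 0.0111% of Rab14. The median share it explained was 20.4% over the 42 members and 14.6% over all VST genes. With that component removed 255 pairs were called, 192 of them also called before, and with 5 components removed 74, of which 43 were called before. The sign of rho stayed the same in 71.1% of pairs with 1 component removed and in 55.2% with 5. The share of all gene pairs past a cut after removal was not computed. Rab2a with Rab18 (rho 0.392) and Rab22a with Rab35 (0.423) were still called with 5 removed, while Rab8b with Rab12 changed sign to -0.074, not called.

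Rab7 was the member with the fewest associated genes. In limma fits of every other VST gene on the residual of 1 Rab gene, with p-values adjusted over 10892 genes, 5.48% of genes passed for Rab7, 10.1% for Rab13 and for Rab34, and 71.4% for Rab43. The genes most like Rab7 were Hal (rho 0.57), Ctsb, the lysosomal protease cathepsin B (0.56), and Sgpl1, a sphingosine phosphate lyase (0.52). None of its 7 regulators and effectors on the list (Mon1a, Mon1b, Ccz1, Rilp, Plekhm1, Tbc1d15 and Vps41) passed, and their rho with Rab7 ran from -0.058 to 0.144.

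Known partners passed the test about as often as other genes did. Of 56 listed pairs of a Rab with an exchange factor, activating protein, effector or kinase, 50 had both genes in the VST table, and 21 passed limma's adjusted p, 11 positive and 10 negative. Of all tests on the same 23 Rab genes 51.9% passed, and with each Rab weighted by its number of pairs the share was 46.8%. The difference was not tested. With the first principal component as a covariate 12 of the 21 kept their sign and call. The membrane cycle genes and most regulators were expressed, with Gdi2, the dissociation inhibitor that extracts Rabs from membranes, at 774 ± 55.1 CPM. The Rab27 effectors Sytl1 to Sytl4, Mlph, Myrip and Exph5 all averaged below 0.478 CPM, whereas Unc13d (Munc13-4), a further Rab27 effector, had 28.9 ± 3.36 CPM, and Myo5a, a vesicle motor, had 701 ± 63.7 CPM (SD, n = 146 each).

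Of the 50 pairs, 1 had its partner among the 3 genes most like the Rab, namely Rab14 with Dennd6a. Rab14, which works between Golgi, early endosomes and phagosomes, had Dennd6a, its exchange factor in human cells, as the gene most like it of 10648 protein-coding genes outside the family. Their rho was 0.645 and r 0.726 (permutation p = 1e-05 for both), r was 0.684 without the 2 most distant libraries, and rho within plates ran from 0.451 to 0.910. Dennd6a, at 48.5, 76.2 and 97.9 CPM in the lowest, median and highest library, changed by 0.090 ± 0.0074 on the log2 scale per SD of Rab14 (limma adjusted p = 1.43e-19, 33.2% of genes called for Rab14). Rab5a rose with its effector Eea1, the tether of early endosomes at 404 ± 50.6 CPM, at rho 0.699 and r 0.701 (permutation p = 1e-05 for both, limma adjusted p = 7.25e-20). It rose also with Rabgef1 (Rabex-5, its exchange factor, r = 0.496) and Rabep1 (rabaptin-5, an effector, r = 0.435). For Rab5a 67.4% of all genes passed, so 3 of 3 partners is not far from that share. The 3 genes most like Rab5a were Esco1 (rho 0.788), Vps4b (0.776) and Sec62 (0.771), all higher than Eea1. Rab5c ran against Rin3, a Rab5 exchange factor (r = -0.497, limma adjusted p = 7.64e-09, 55.6% of genes called for Rab5c).

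**Figure D4:**
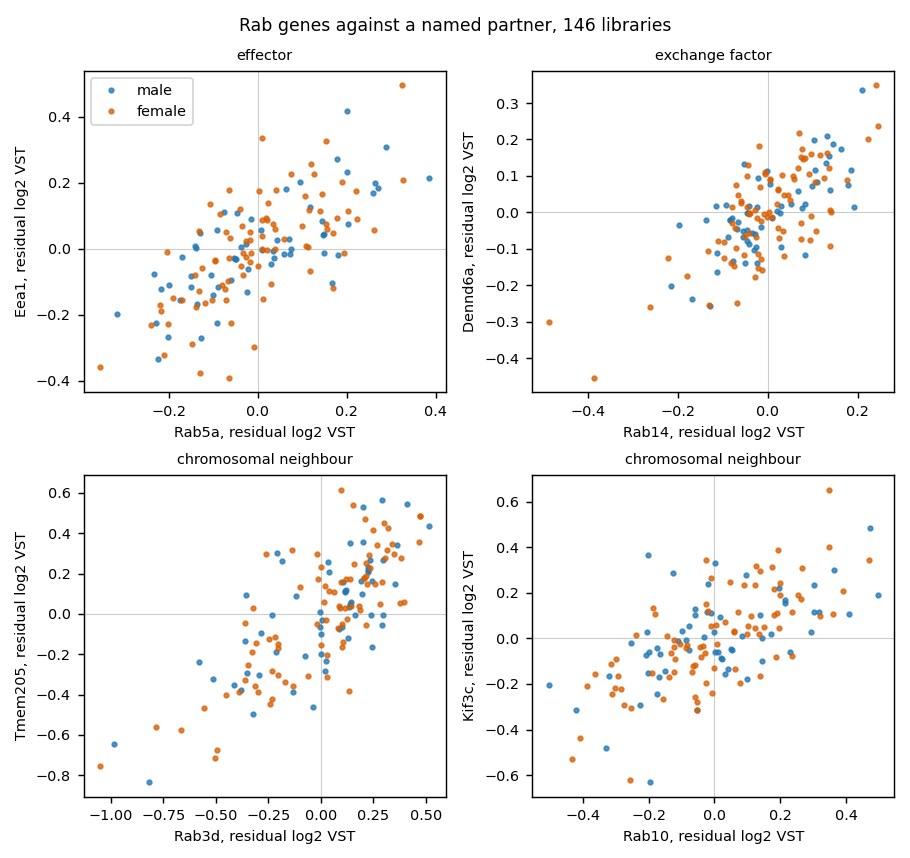
Residual log2 VST values, plate and sex removed, of 4 Rab genes against a partner in 60 male and 86 female libraries; each dot is 1 mouse. All 4 clouds slope upward, with rho 0.699 for Rab5a and Eea1, 0.645 for Rab14 and Dennd6a, 0.729 for Rab3d and Tmem205 and 0.637 for Rab10 and Kif3c.

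The upstream DNA of these Rabs is shown because each moves with a named gene: Rab5a with Eea1, Rab14 with Dennd6a, and Rab22a with Rab35. Each line gives the 250 bases before the RefSeq start (GRCm38.p6), 5′ to 3′ on the strand of the gene. Capitals mark exact matches on either strand to 6 motifs: the E-box CACGTG, the GC box GGGCGG bound by Sp1, the cyclic AMP response element TGACGTCA, the Ets motif CCGGAAG, the CCAAT box CCAAT and the YY1 motif AAGATGGCG. Neighbouring GC boxes share 1 base in Rab22a and in Rab35, and no other matches overlap.
Rab5a (chr17:53478984-53479233, plus strand): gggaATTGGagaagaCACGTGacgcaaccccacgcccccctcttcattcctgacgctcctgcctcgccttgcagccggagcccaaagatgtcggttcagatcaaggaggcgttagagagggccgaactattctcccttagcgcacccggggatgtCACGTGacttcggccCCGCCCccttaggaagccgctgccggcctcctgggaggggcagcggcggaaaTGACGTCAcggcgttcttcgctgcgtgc
Eea1 (chr10:95940413-95940662, plus strand): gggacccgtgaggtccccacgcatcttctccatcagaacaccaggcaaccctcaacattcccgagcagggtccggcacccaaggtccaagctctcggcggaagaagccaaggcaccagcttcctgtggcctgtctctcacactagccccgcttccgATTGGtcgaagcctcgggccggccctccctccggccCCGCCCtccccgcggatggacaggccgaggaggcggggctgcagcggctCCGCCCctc
Rab14 (chr2:35201121-35201370, minus strand): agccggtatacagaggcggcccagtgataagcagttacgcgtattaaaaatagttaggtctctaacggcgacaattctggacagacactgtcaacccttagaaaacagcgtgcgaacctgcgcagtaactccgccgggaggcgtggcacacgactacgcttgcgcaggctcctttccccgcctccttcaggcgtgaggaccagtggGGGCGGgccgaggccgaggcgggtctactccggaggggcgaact
Dennd6a (chr14:26573608-26573857, plus strand): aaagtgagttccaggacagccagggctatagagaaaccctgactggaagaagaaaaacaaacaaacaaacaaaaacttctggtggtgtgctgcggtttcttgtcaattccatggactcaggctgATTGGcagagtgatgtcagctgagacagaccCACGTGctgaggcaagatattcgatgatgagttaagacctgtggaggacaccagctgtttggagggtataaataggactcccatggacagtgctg
Rab22a (chr2:173659595-173659844, plus strand): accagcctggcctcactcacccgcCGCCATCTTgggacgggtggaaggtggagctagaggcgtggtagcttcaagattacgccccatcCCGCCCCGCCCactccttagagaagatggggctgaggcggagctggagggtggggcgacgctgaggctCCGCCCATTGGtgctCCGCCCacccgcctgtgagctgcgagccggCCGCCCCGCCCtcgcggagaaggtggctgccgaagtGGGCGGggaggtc
Rab35 (chr5:115631737-115631986, plus strand): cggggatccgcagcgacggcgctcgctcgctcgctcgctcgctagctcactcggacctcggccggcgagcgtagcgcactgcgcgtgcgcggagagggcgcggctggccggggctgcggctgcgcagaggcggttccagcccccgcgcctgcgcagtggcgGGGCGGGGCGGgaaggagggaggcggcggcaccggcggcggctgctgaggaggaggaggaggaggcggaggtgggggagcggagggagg

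Of the 42 members 37 had at least 1 RefSeq window, 46 windows in all. The GC box was present in 32 of these 46 windows (69.6%) against 32.7% of all 32851 windows, and the CCAAT box in 45.7% against 33.8%. The 32851 windows were not limited to genes of the VST table, as the members are. A difference from them therefore cannot be read as particular to Rab genes. The E-box was present in windows of 5 member genes (Rab5a, Rab20, Rab21, Rab23 and Rab27a), 10.9% of windows against 6.02% of all. Rab5a alone among the members held the cyclic AMP response element, present in 1.55% of all windows. In the windows shown, Eea1 and Rab5a shared the GC box and the CCAAT box, Rab22a and Rab35 the GC box, and Rab14 (1 GC box) and Dennd6a (a CCAAT box and an E-box) had none in common. Dennd6a has 2 RefSeq windows, and only the one nearest the annotated gene start was compared. These are letter matches and say nothing of binding.

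Other listed partners covered both directions. Rab32, which guides proteins to lysosome-related organelles, fell as Hps1, a subunit of its exchange factor complex, rose (rho -0.470, r = -0.555, limma adjusted p = 8.42e-11), while Hps4, the other subunit, did not pass (r = 0.181, limma adjusted p = 0.0576). Lrrk2, the kinase that phosphorylates several Rabs, rose with Rab29 (r = 0.429, limma adjusted p = 5.30e-07) and fell with Rab10, one of its substrates (r = -0.347, limma adjusted p = 0.000244). With the first principal component as a covariate neither Lrrk2 relation passed. Tbc1d10a, an activating protein that acts on Rab35 and Rab27a, rose with Rab35 (r = 0.478) and fell with Rab27a (r = -0.461). Recycling effectors of the Rab11 family rose with their Rab in 3 of 4 pairs: Rab11fip2 (r = 0.447) and Rab11fip5 (0.284) with Rab11a and Rab11fip5 with Rab11b (0.446), whereas Rab11fip1 fell with Rab11a (-0.297). Tbc1d20, the activating protein of Rab1, fell with Rab1a (r = -0.422) and with Rab1b (-0.212). With the first principal component as a covariate the slope on Rab1b turned positive (0.023, limma adjusted p = 0.00606), and with collection date in place of plate it did not pass (limma adjusted p = 0.301). As background, the share of all genes called was 55.4% for Rab32, 65.4% for Rab29, 44.6% for Rab10, 66.2% for Rab35, 36.7% for Rab27a, 59.4% for Rab11a, 68.8% for Rab11b, 66.4% for Rab1a and 70.4% for Rab1b. The remaining pairs that passed were Rab9 with Dennd2c (r = -0.389), Rab33b with Rabep1 (0.314), Rab39 with Dennd5a (-0.340), Rab31 with Rin2 (0.308) and Rab8a with Rab3ip (-0.211), where the shares of all genes called were 48.7% for Rab9, 67.6% for Rab33b, 37.8% for Rab39, 13.8% for Rab31 and 54.9% for Rab8a.

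The genes below were picked from the 3 most like each Rab after those lists were seen, as descriptions over 146 libraries with no test. How common genes of their kinds are among all candidates was not counted. Rab5c had Ap2s1 (rho 0.76) and Clta, a clathrin light chain (0.73), both parts of the endocytic coat. Rab5a had Vps4b, which takes apart the endosomal sorting complexes (0.78). Rab35 had Arl8a, a lysosomal small GTPase (0.79), and Rab43 had Trappc6a, of a Golgi tethering complex (0.86). Rab6a had Vapa, an endoplasmic reticulum contact protein (0.68), and Rab10 had Stx12, an endosomal fusion protein (0.60). Rab39 had the chromosome condensation gene Ncapg (0.57) and the mitotic kinesin gene Kif20b (0.54). Rab18, Rab11a and Rab2a had genes in common: Syap1 was first for Rab18 (0.87) and Rab11a (0.84), and Tmem30a and Ube2d3 were among the 3 first for both Rab18 and Rab2a. Rab2a also had Tmem33, an endoplasmic reticulum membrane protein (0.70).

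For 4 members a gene named by this rule lay on the same chromosome within 1000 kb. Rab3d (GRCm38 chr9:21907491-21918192) had Tmem205, 2.82 kb away, first at rho 0.729, and AB124611, 362 kb away, second at 0.550. Rab10 (GRCm38 chr12:3247428-3309969) had Kif3c, a kinesin gene 55.2 kb away, as the most similar gene (0.637) and Dtnb, a dystrobrevin gene 262 kb away, as the most opposed one (-0.596). Rab19 had Slc37a3, 3.5 kb away, first (0.598), and Rab34 had Sdf2, 53.6 kb away, second (0.423). Of 168 genes named in this way 6 (3.57%) lay within 1000 kb of their Rab, whereas 0.210% of candidate genes did on average. Over all 939 genes so near, the median absolute rho was 0.204, and the typical median over all candidates was 0.185. Of 3 pairs of neighbouring Rab genes, Rab7b and Rab29, 152 kb apart, had a rho of -0.283 (adjusted permutation p = 0.00198). Rab12 and Rab31, 722 kb apart, had 0.299 (adjusted permutation p = 0.00116), and Rab7 and Rab43, 187 kb apart, 0.005 (adjusted permutation p = 0.964).

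Rab genes varied with the state of the culture in a way that differed by gene, as slopes on 8 programme scores showed. A score is the mean of standardised residual VST values over a list of textbook genes, and a slope is the log2 change of a Rab gene per SD of the score, tested with limma over 10893 genes. Of the 47 slopes named below by rule, 16 were still called with the first principal component as a covariate. Another 28 lost their call there, and 3 changed sign. With the granulocyte precursor score (Mpo, Elane and others) Rab37 rose most (slope 0.139 ± 0.032, SE, limma adjusted p = 0.000140), followed by Rab27a, a Rab of granule release (0.118 ± 0.018, limma adjusted p = 1.17e-08), and Rab43 (0.069). Rab20, a Rab of phagosomes and hypoxic cells, fell with the same score (-0.086 ± 0.020, limma adjusted p = 0.000193), as did Rab3a (-0.052) and Rab29 (-0.052). In all 7 members rose and 11 fell, 42.9% of members against 48.2% of all genes (22.7% rising, 25.5% falling). With the first principal component as a covariate 3 rose and 14 fell (40.5%, against 28.6% of all genes), and the slope of Rab43 was -0.0033, not called. With collection date in place of plate the slope of Rab37 no longer passed (0.048, limma adjusted p = 0.115), and that of Rab27a did (0.111, limma adjusted p = 6.05e-10).

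Rab20 and Rab27a ran opposite to each other on the lysosomal and inflammatory scores as well. Rab20 had the steepest rise with lysosomal genes (0.085 ± 0.020, limma adjusted p = 0.000762) and with inflammatory genes (0.104 ± 0.019, limma adjusted p = 3.22e-05). Rab27a had the steepest fall with both, at -0.088 ± 0.019 (limma adjusted p = 0.000189) and -0.067 ± 0.019 (limma adjusted p = 0.00752). The rho between Rab20 and Rab27a themselves, looked up after these values were seen, was -0.383 (r = -0.414, permutation p = 1e-05).

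With lysosomal genes 12 members rose and 3 fell, 35.7% of members against 20.6% of all genes, of which 10.8% rose and 9.84% fell. With the first principal component as a covariate 12 rose and 3 fell again (35.7%), but 26.4% of all genes were called. With collection date in place of plate 11 rose and 3 fell (33.3%, against 26.5% of all genes). Rab34 (0.076), a Rab of lysosome positioning, and Rab4a (0.055) followed Rab20. Rab39 (-0.076) and Rab23 (-0.034), a Rab of cilia and hedgehog signalling, fell. With inflammatory genes 4 members rose and 5 fell, 21.4% against 23.5% of all genes (11.1% rising, 12.4% falling), and with the first principal component as a covariate 1 rose and 1 fell (4.76%, against 6.71%). After Rab20 came Rab12 (0.041) and Rab22a (0.038), and after Rab27a came Rab3a (-0.055) and Rab28 (-0.054).

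**Figure D5:**
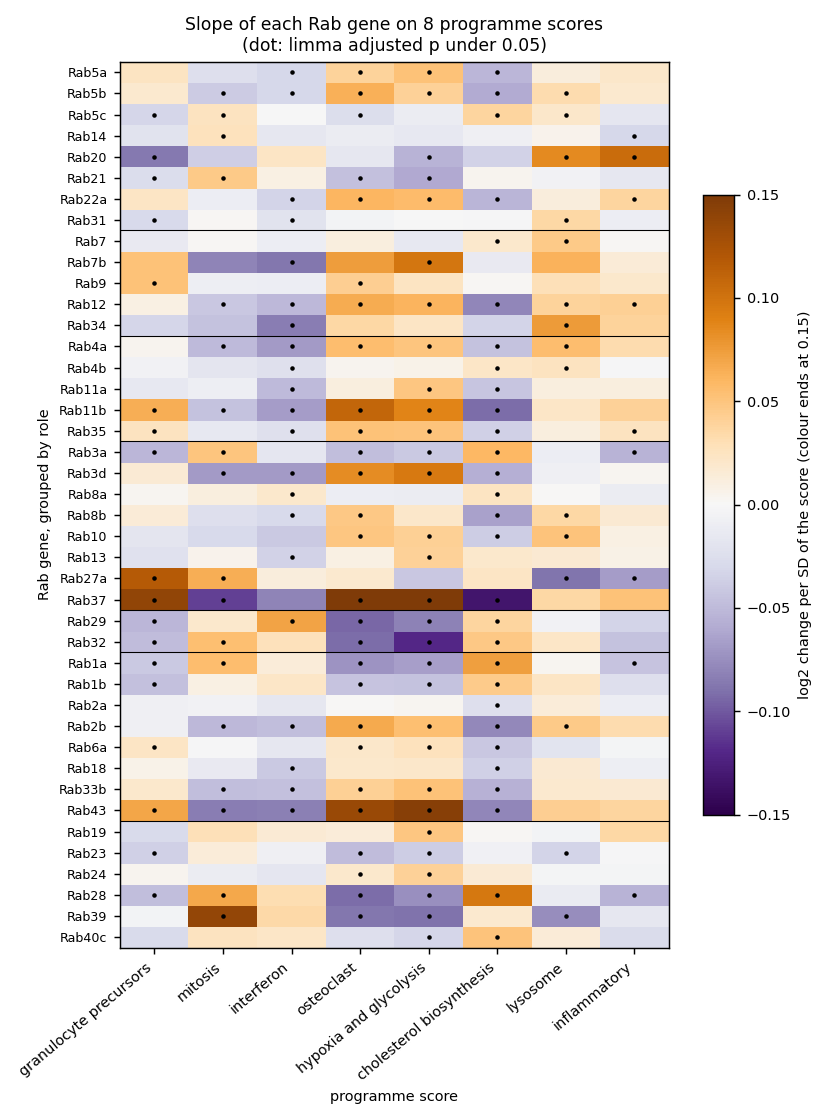
Slope of each of the 42 Rab genes, grouped by role, on 8 programme scores, in log2 change per SD of the score; orange is a rise, purple a fall, and a dot marks a limma adjusted p under 0.05. Rab37 and Rab43 have the deepest orange under osteoclast and hypoxia and glycolysis, where Rab29 and Rab32 are purple, and Rab20 and Rab27a have opposite colours in the first and the last 2 columns.

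Interferon genes went with a fall of most Rabs that moved. Rab29 rose (0.070 ± 0.012, limma adjusted p = 1.74e-06), as did Rab8a (0.019), and 19 members fell, against 16.9% of all genes falling, 16.1% rising and 33% called in all. The steepest falls were those of Rab7b (-0.088 ± 0.036, limma adjusted p = 0.0476), Rab34 (-0.084) and Rab43 (-0.083). With the first principal component as a covariate 6 members (14.3%) were called in place of 21, and 6.57% of all genes.

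Rab37 and Rab43 had the largest rises on both the osteoclast score (Acp5, Ctsk and others) and the hypoxia and glycolysis score. The osteoclast score rests on 7 of 10 listed genes, since Ocstamp (0.888 CPM), Oscar (0.0108 CPM) and Calcr (8.39e-05 CPM) were not in the VST table. Rab37 rose by 0.214 ± 0.029 with osteoclast genes and by 0.243 ± 0.027 with hypoxia genes (limma adjusted p = 8.11e-11 and 4.34e-14). Rab43 rose by 0.134 ± 0.014 and 0.145 ± 0.014, and Rab11b by 0.110 with osteoclast genes and Rab7b by 0.098 with hypoxia genes. Rab32 fell by 0.120 ± 0.016 with hypoxia genes (limma adjusted p = 4.39e-11) and by 0.092 with osteoclast genes, and Rab29 fell by 0.095 with osteoclast genes and 0.082 with hypoxia genes. Rab28 also fell with osteoclast genes (-0.092) and Rab39 with hypoxia genes (-0.089). The counts were 17 rising and 10 falling for osteoclast genes (64.3% of members against 65.3% of all genes, with 31.6% rising and 33.7% falling). For hypoxia genes they were 19 rising and 11 falling (71.4% against 62.9%, with 30.1% rising and 32.8% falling). With the first principal component as a covariate 6 members rose and 4 fell with hypoxia genes (23.8%, against 33.5% of all genes), and 5 rose and 5 fell with osteoclast genes (23.8%, against 18.4%).

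With mitotic genes Rab39 rose most (0.137 ± 0.027, limma adjusted p = 1.22e-05), then Rab28 (0.069) and Rab27a (0.065), while Rab37 (-0.110), Rab43 (-0.084) and Rab3d (-0.068) fell. In all 9 members rose and 9 fell, 42.9% against 48.7% of all genes (25.5% rising, 23.2% falling). Adding the first principal component as a covariate left 6 rising and 3 falling (21.4%, against 31% of all genes). With cholesterol biosynthesis genes, named in the title of the study, Rab28 (0.097 ± 0.013, limma adjusted p = 1.89e-10), Rab1a (0.073 ± 0.010, limma adjusted p = 4.70e-10) and Rab3a (0.059) rose. Rab37 (-0.133), Rab11b (-0.092) and Rab12 (-0.079) fell. In all 11 members rose and 18 fell, 69% against 62.6% of all genes (31.6% rising, 30.9% falling). With that component as a covariate 8 rose and 4 fell (28.6%, against 25.1% of all genes), and the slope of Rab37 turned to 0.032 and that of Rab11b to 0.0036, neither called. No member, and none of the 10893 genes, passed limma's test for a slope on log2 depth.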

How the data were processed

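RNA of 146 macrophage cultures, 1 per mouse, was sequenced as 100-base paired reads from a TruSeq poly-A kit, per the labels' protocols. Per the submitters' processing notes, TopHat2 2.0.11, HTSeq 0.6.1, DESeq2 and GRCm38 (mm10) were used; the annotation release and strand setting are not given in the sources used here. The deposited count table holds raw counts per gene, and the deposited log2 table holds variance-stabilised values of a filtered gene set. Genes were named with GENCODE M21 (21899 of 22721), and unnamed rows held 0.160% of counts.

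The members, gene lists and partner pairs were chosen with earlier results of these data known. Levels were CPM, per kb of exon between genes. Sex, plate and their interaction were tested on counts with edgeR 4.0.16 (TMM, filterByExpr). Correlations used log2 VST residuals with 100000 two-sided permutations within plates, adjusted over 861 pairs. These permutations mixed the collection dates of a plate, so variation shared by a date can enter rho and its p. Partner and programme slopes used limma 3.58.1, adjusted over all VST genes. The threshold was 0.05. Replicate numbers follow accession order and pair nothing. Named by rule were members past the sex test, the 12 with the smallest plate p, the 6 of largest spread, the 12 highest, 8 lowest and best within-role pairs, the listed partners, 3 most similar and 1 most opposed gene per Rab, and the 3 steepest slopes each way per score. The text gives the most similar genes of only some members. The sex test, the correlation between genes and the limma slope were tested on simulated data. The plate and interaction tests were not. Depth limits precision chiefly for Rab37, Rab39 and Rab3a. Alternatives were DESeq2 1.42.0, limma voom, RLE scaling, no count filter, log2 CPM, date or lane in place of plate, principal components removed, and plates or libraries left out.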

Additional observations from a re-analysis of the deposited data

How the results depend on the processing

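The 4 sex differences depended on which mice entered: with each plate left out in turn 0 to 5 members passed in edgeR, with 2 without plate 2, plate 3, plate 7 or plate 8, and 0 without plate 4. Other scalings, filters, tools and batch terms gave 3 to 4, and leaving out the 6 libraries against their sex label gave 5. The plate count stayed between 33 and 36 and the interaction count at 0. Of 861 Rab pairs, 462 in the main result, 396 to 506 were called under every other choice except the removal of principal components. With 1 component removed 255 were called, 192 of them shared with the main result, and with 5 removed 74, of which 43 were shared. In limma fits adjusted over all VST genes, an alternative chosen after seeing the data, 434 pairs passed in both directions. Of the 26 named pairs, 3 were still called with 5 components removed, and 18 kept their sign but were no longer called. The other 5 changed sign, none of them called: Rab8b with Rab12 (-0.074), Rab1b with Rab8b (0.138), Rab1a with Rab35 (0.069), Rab1b with Rab5a (0.040) and Rab5b with Rab22a (-0.029). Partner calls, 21 in the main result, numbered 15 to 22 under every alternative, not always for the same pairs. With the first component as a covariate 12 of the 21 kept their sign and call, 8 lost their call and 1 changed sign. The 167 calls of members on the 8 scores fell to 81 with the first component as a covariate, where the share of all genes called per score was 6.57% to 33.5%, against 20.6% to 65.3% without it. Of the 47 named slopes of Rab genes 16 were still called with that covariate, 28 lost their call and 3 changed sign. There the slope of Tbc1d20 on Rab1b reversed to 0.023 (limma adjusted p = 0.00606), Rab43 on the granulocyte precursor score to -0.0033, Rab37 on the cholesterol score to 0.032 and Rab11b on it to 0.0036. The cause of these shifts was not tested. No paired analysis was possible because replicate numbers only follow accession order and pair no mice.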
